A study of Mus musculus with 12 samples.

Results

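The insulin-like growth factor (IGF) axis was followed here through every array probe annotated to a single gene among Igf1, Igf2, Igf1r and Igfbp2 to Igfbp7. The rule found 14 of the 28704 probes, 6 for the ligands and 8 for binding proteins, and they represented 6 of the 9 genes. No probe carried Igf1r, Igfbp2 or Igfbp6 as its single symbol, so these 3 genes were not analysed here. The cells were MC3T3-E1, a clonal mouse line of osteoblast-like cells from calvaria. In the shear group (6 samples) confluent monolayers on glass were put under pulsatile fluid flow in a parallel plate chamber, with a mean shear of 5 dyn/cm2 pulsed at 1 Hz for 5 h. In the control group (6 samples) the monolayers stayed static in the same apparatus, and both groups were grown in 5% serum. The flow loop held medium with 1% serum, and 1% serum is listed for the control samples too. Nothing in the labels states that the cultures were separate, so each p-value reflects only how these samples spread, and part of that spread may be technical.

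IGF-I and IGF-II are secreted growth factors that signal mainly through the type 1 IGF receptor, a tyrosine kinase. Both are made by osteoblasts and stored in bone matrix. The IGF binding proteins hold the ligands outside the cell, which can keep them from the receptor or deliver them to it. Proteases that cut the binding proteins release the ligands.

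Each sample had a log2 signal per probe, relative to the median of its own block of 598 probes, so 0 is the typical measured spot of a sample. Such values cannot show a change shared by every gene. Between 18434 and 23790 probes had a value per sample. Fewest were measured in control replicates 3 and 4, at 72.9% and 64.2% of probes, while the other samples had 76.1% to 82.9%. Within each group, odd replicates carried Cy5 and even ones Cy3, and neighbouring numbers (1 with 2, 3 with 4, 5 with 6) were treated as 1 array of 2 colours, an inference from the dyes and the design. Of 17 osteoblast marker genes 8 were tested on 12 probes, of which 1 was called higher (Lox) and 1 lower (Dlx5), and Sparc, Col1a2 and Serpinh1 had probes with mean log2 signals of 4.37 or more in both groups. The 2 probes of alkaline phosphatase, Alpl, lay at -1.39 and -0.95 in shear samples and at -1.40 and -1.01 in control samples. None of the 29 tested probes for macrophage, endothelial, adipocyte, chondrocyte and muscle markers passed the test. Their mean log2 signals ran from -2.96 (Emcn) to 3.20 (Tnnt1) in shear samples. In control samples they ran from -2.86 (Eng) to 3.79 (Tnnt1), so some were bright. The muscle probes with a value in a sample averaged -0.54 to 0.07 in shear samples and 0.03 to 0.54 in control samples. These averages depend on which probes had a value in a sample, since a missing dim probe raises them. Probe by probe, the median change of the muscle markers was 0.0081, from -0.59 (Tnnt1) to 0.80 (1 probe of Cnn1). The part of such cells in the results was not tested.

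The comparison asked whether transcripts of the IGF axis differed between sheared and static osteoblast-like cells. None of the 10 IGF-axis probes that could be tested passed at an adjusted p of 0.05 (limma, Benjamini-Hochberg over 21883 probes). Over all probes tested, 1.62% passed, 1.42% higher and 0.201% lower in shear samples. In RNA from whole cultures, fewer cells of a type and less RNA per cell cannot be told apart. At an unadjusted p under 0.05 there was 1 of the 10 IGF-axis probes, of Igfbp3, beside 14.6% of all probes tested. The changes of the 10 probes ranged from -0.78 to 0.26 on the log2 scale, shear minus control, with 6 below 0 and 4 above. Their median was -0.13, beside 0.10 for all probes tested. With samples centred on the probes measured in all of them the median of all probes was -0.02, and probes called higher and lower numbered 274 and 132, against 310 and 44 with each sample centred on its own median.

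Of the other 4 probes, 2 had no value in any sample (1 for Igf2 and 1 for Igfbp4). The remaining 2 were of Igf2 and had fewer than 4 control values, too few for the test. The 9 probes with a value in all 12 samples were those of Igf1, Igfbp3, Igfbp5 and Igfbp7 and 1 of Igfbp4. Net fluorescence, the whole-number spot brightness recovered from the log2 values, is mapped to show where values were missing.

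**Figure D1:**
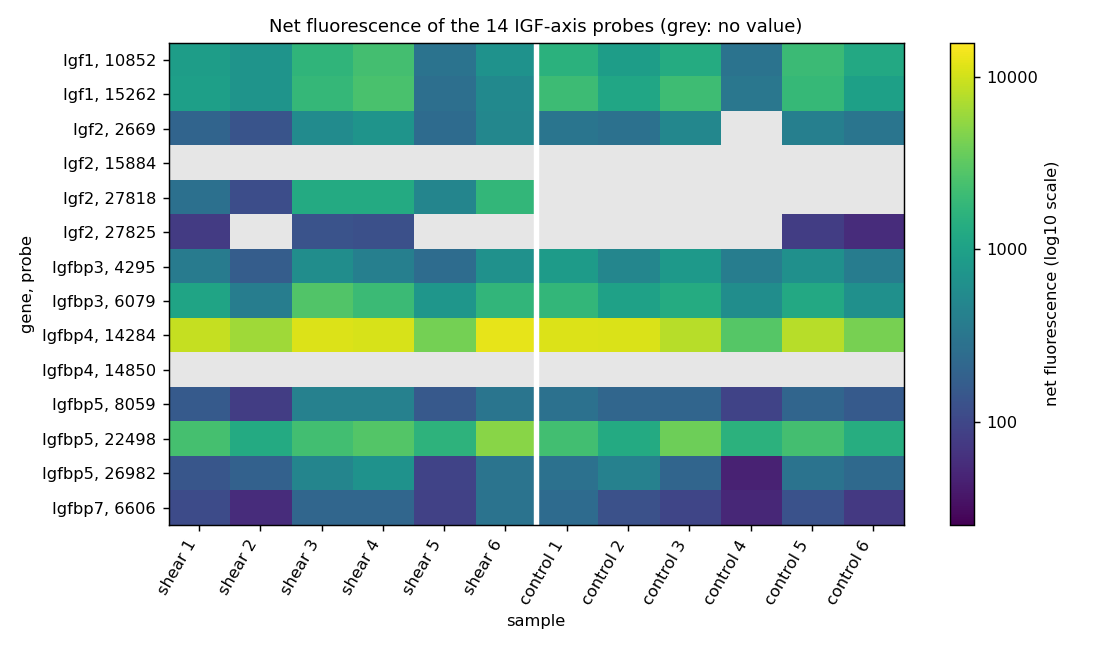
Net fluorescence of each of the 14 IGF-axis probes (rows) in each sample (columns, shear left of control), on a log10 colour scale in scanner units; grey cells have no value. Igf2 probe 27818 had values in all 6 shear samples and in none of the control samples, and Igf2 probe 15884 and Igfbp4 probe 14850 had none at all.

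Igf1 (Entrez gene 16000) encodes IGF-I, the ligand that circulates from liver and is also made locally in bone. Its probe 15262 had a lowest, median and highest log2 signal of -0.65, 0.87 and 1.27 in shear samples, against 0.0089, 1.50 and 2.08 in control samples. Probe 10852 had -0.10, 0.99 and 1.62 in shear samples, against 0.40, 1.48 and 1.91 in control samples. The groups overlapped on both probes, and on probe 15262 all 6 shear samples lay below the control median.

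The log2 change of Igf1 was -0.77 ± 0.63 (SE, n = 6 per group) on probe 15262 and -0.49 ± 0.51 on probe 10852. Neither passed, at adjusted p = 0.625 and 0.722 (limma, Benjamini-Hochberg). The 95% intervals ran from -2.11 to 0.57 and from -1.58 to 0.60, which covers a fold change between 0.232 and 1.49 on the first probe. Both probes ranked the samples much alike, with a Pearson r of 0.94 and a Spearman rho of 0.88 over the 12 samples, given as a description since samples share arrays and scaling.

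The lowest Igf1 signals came from 3 samples, the same on each probe. Shear replicates 5 and 6, of 1 array, were at 0.04 and -0.65 on probe 15262, while the other shear samples were between 0.82 and 1.27. Control replicate 4 was at 0.0089, and control replicate 3, taken to be on the same array, was at 2.08. Without the array of shear replicates 5 and 6 the change of probe 15262 was -0.31 and that of probe 10852 was -0.12. Without control replicate 4 they were -1.07 and -0.71, and neither passed in either setting.

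**Figure D2:**
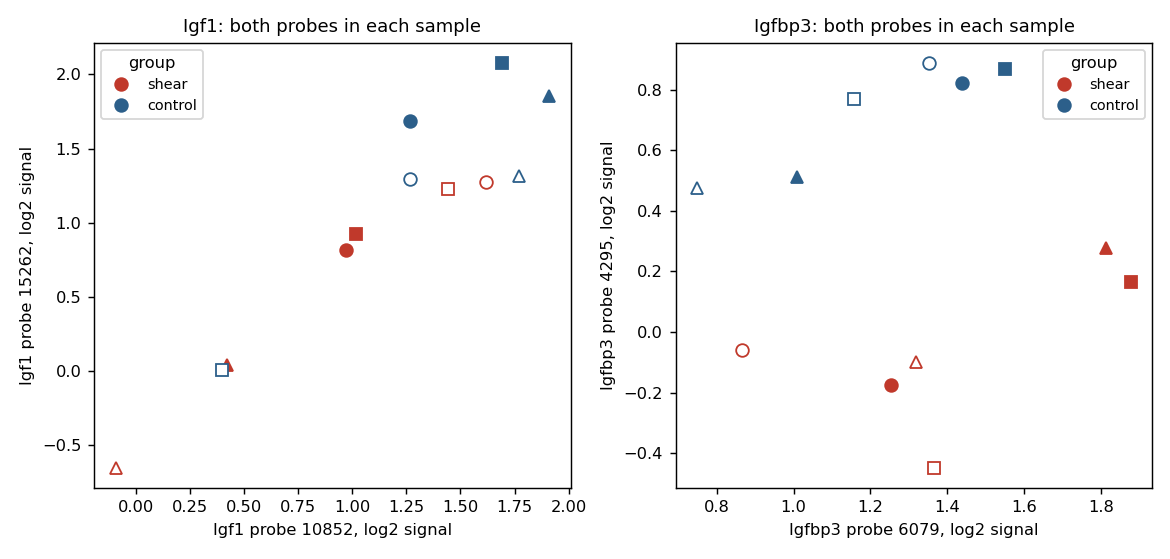
Log2 signal of 2 probes of the same gene in each sample, for Igf1 (left) and Igfbp3 (right); red is shear and blue control, circles are replicates 1 and 2, squares 3 and 4, triangles 5 and 6, and filled points Cy5. The Igf1 probes lie along 1 line, with r = 0.94, whereas the Igfbp3 probes separate the groups on the vertical axis (probe 4295) and not on the horizontal one (probe 6079).

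Igf2 (Entrez gene 16002) encodes IGF-II, a growth factor expressed from the paternal allele and prominent in fetal tissue. It had 4 probes, and they differed in where they gave values. Probe 2669 had a lowest, median and highest log2 signal of -1.22, -0.72 and -0.09 in shear samples. In the 5 control samples with a value it was at -0.83, -0.64, -0.08, -0.67 and -0.67. The groups overlapped, and the change of -0.15 ± 0.35 (SE) did not pass, with a 95% interval from -0.92 to 0.61 and adjusted p = 0.890 (limma, Benjamini-Hochberg). The fit left out control replicate 4, which had no value.

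Igf2 probe 27818 was measured in every shear sample but lacked a value throughout the controls. Its log2 signals were -0.62, -0.57, 0.75, 0.39, 1.04 and 0.86 in shear replicates 1 to 6, a mean of 0.31 ± 0.73 (SD, n = 6). The 2 samples of 1 array, replicates 1 and 2, were the lowest. As net fluorescence, these signals ran from 116 to 1783 units. No fold change and no test can be given for this probe.

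This pattern of values was rare on the array, but the probe was noted beforehand for it, so its rarity is a description and no test. Blanks also came by array. Where a probe lacked a value on an array, both samples lacked it in 81.6% of cases, so the control blanks are not separate events. Of 2425 probes with 6 shear values and a shear mean within 0.25 of that of Igf2 probe 27818, 2287 (94.3%) had a value in all control samples and 2, this probe included, had none. Over the whole array 43 probes had values in every shear sample and no control sample, while 7 had the opposite pattern. The 43 lay in 22 of 48 blocks and not evenly, with several each in blocks 37 and 42. Block 47, that of Igf2 probe 27818, held 2 of them. Of the 43, 2 had a higher shear mean than this probe. Among the 40 probes listed nearest to Igf2 probe 27818, 78.8% of shear values and 71.2% of control values were present. In its block these shares were 76.3% and 70.3%, and over the whole array 80.5% and 76.9%. Whether its place on the array plays a part was not tested.

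Values were also missing for some probes that were bright in other samples, and how bright a blank spot was cannot be seen. The rule that left spots without a value is not given in the sources used here. Of 2667 bright probes, with at least 6 values and a mean log2 signal above 2, 140 (5.25%) lacked at least 1 value. Only 1 bright probe had a value in every shear sample and in no control sample. Among the 140 was the tested probe of Igf2r, the receptor that takes up and clears IGF-II. It had no value in control replicates 1 and 2 but lay between 3.30 and 5.42 in the shear samples and between 3.73 and 5.28 in the other control samples. What the blank control spots of Igf2 probe 27818 stand for was not tested.

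Igf2 probe 27825 was dim. It had values in 3 shear samples (-2.41, -2.56 and -3.02) and 2 control samples (-2.61 and -2.40). The 5th percentiles of the samples lay between -2.87 and -2.18, so these values were near the bottom of the measured range. The Igf2 probe that could be tested therefore gave no difference that passed, and the probe with shear values alone had no control value to set beside it.

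**Figure D3:**
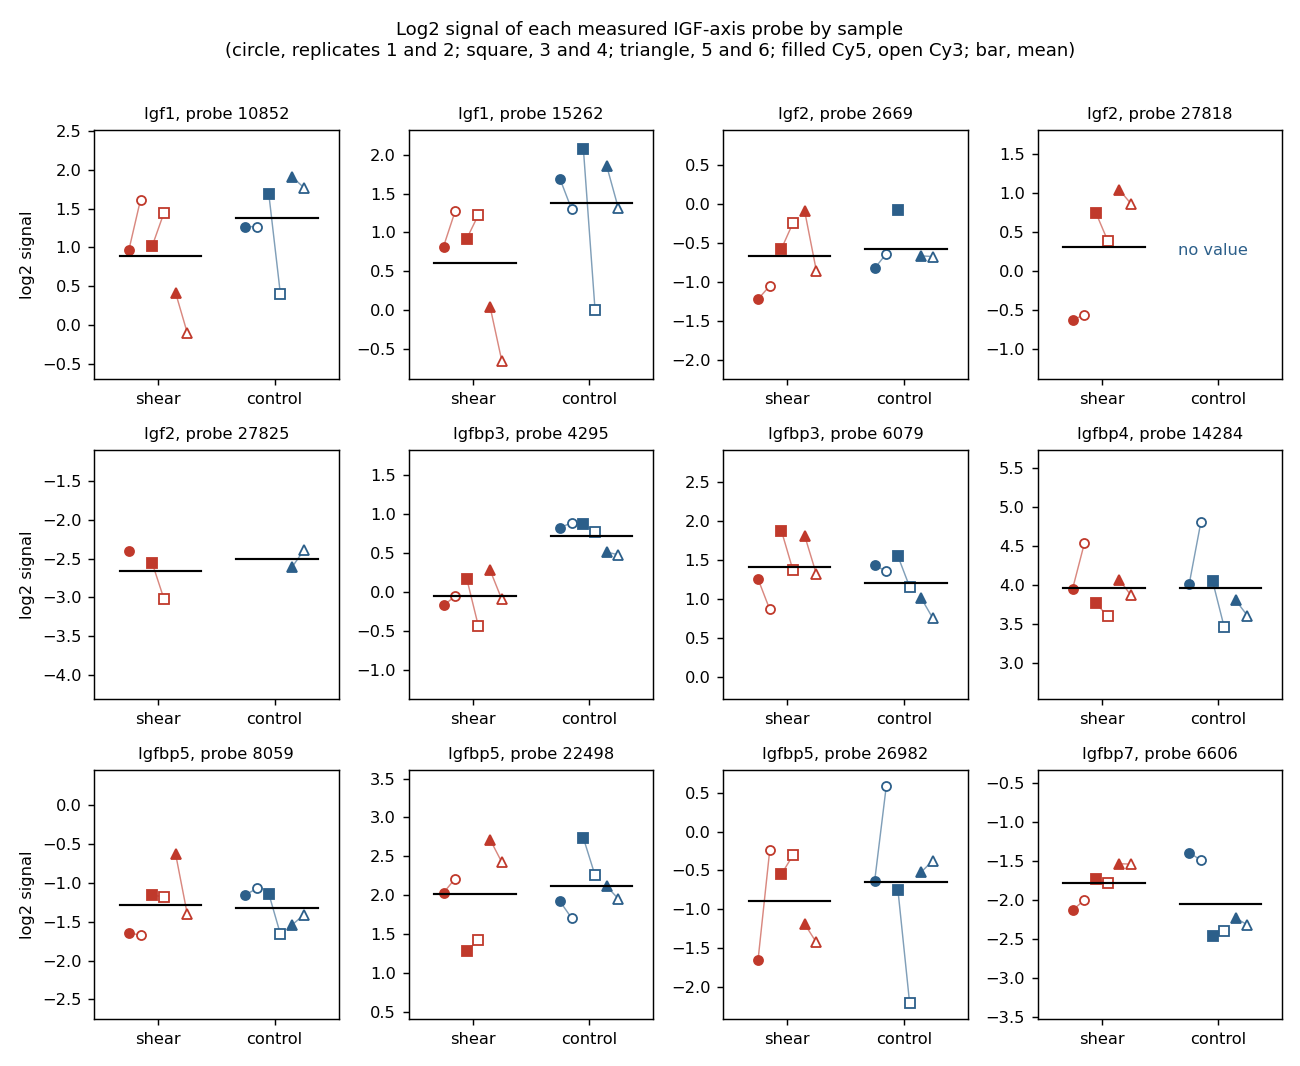
Log2 signal (vertical axes) of the 12 IGF-axis probes with any value, by sample, shear left of control; lines join the 2 samples of an array, filled points are Cy5, open points Cy3, and bars are group means. On Igfbp3 probe 4295 all 6 shear samples (-0.45 to 0.28) lie below all 6 control samples (0.47 to 0.89), and on the other probes with values in both groups the groups overlap.

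Igfbp3 (Entrez gene 16009) encodes the main carrier of IGFs in blood, which also binds IGFs locally in tissues. On probe 4295 the lowest, median and highest log2 signals were -0.45, -0.08 and 0.28 in shear samples, against 0.47, 0.80 and 0.89 in control samples. Every shear sample lay below every control sample. The mean was -0.06 ± 0.26 in shear samples and 0.72 ± 0.18 in control samples (SD, n = 6 each).

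The change of Igfbp3 probe 4295 was -0.78 ± 0.26 (SE), or 1.72-fold lower in shear samples, with a 95% interval from 1.17-fold to 2.52-fold lower. It did not pass, with an unadjusted p of 0.0094 and adjusted p = 0.166 (limma, Benjamini-Hochberg). It was the only tested IGF-axis probe without overlap between the groups, 1 of 10, while 7.94% of all probes tested had none (1.68% with shear lower and 6.26% with shear higher), so a count of 1 is close to the background. Without the array block the adjusted p was 0.00627 (limma, Benjamini-Hochberg), and under the other alternatives run for this probe it ranged from 0.106 to 0.313.

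The second Igfbp3 probe, 6079, did not show this. Its lowest, median and highest log2 signals were 0.87, 1.34 and 1.88 in shear samples, against 0.75, 1.26 and 1.55 in control samples. The groups overlapped, and the change was 0.21 ± 0.24 (SE), with a 95% interval from -0.31 to 0.73 and adjusted p = 0.759 (limma, Benjamini-Hochberg).

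The 2 Igfbp3 probes thus gave estimates of opposite sign, though the interval of probe 6079 included 0. Its change was 0.014 with cyclic loess and 0.071 with samples centred on probes measured in all. The difference between the 2 probes was examined after the values were seen. Probe 4295 minus probe 6079 was between -1.81 and -0.92 in shear samples and between -0.68 and -0.28 in control samples, with no overlap. The change of probe 4295 was lower than that of probe 6079 by a log2 difference of -0.98. Because the pair was compared for what its values showed, no test of this difference is given. As a description, within the groups the 2 probes varied together, with a Pearson r of 0.70 over the 12 samples after group means were removed, against 0.03 with the groups pooled. Which part of the transcript each probe reads was not analysed here, so the direction of Igfbp3 as a gene is not settled by these 2 probes.

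Igfbp4 (Entrez gene 16010) encodes a binding protein that mostly inhibits IGF action and is cut by the metalloprotease PAPP-A. Its measured probe, 14284, was bright, with net fluorescence from 4072 to 12451 units in shear samples and from 2864 to 11422 in control samples. The lowest, median and highest log2 signals were 3.60, 3.91 and 4.53 in shear samples, against 3.46, 3.91 and 4.81 in control samples. The ranges almost coincided, and replicate 2 was the highest sample of each group. The change was 0.0076 ± 0.40 (SE), with a 95% interval from 0.558-fold to 1.81-fold and adjusted p = 0.997 (limma, Benjamini-Hochberg). Its sign turned under other scalings, for example to -0.21 with cyclic loess. A difference of the size seen for the lower Igfbp3 probe lies within this interval.

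Igfbp5 (Entrez gene 16011) encodes a binding protein that attaches to extracellular matrix and is stored in bone. It had 3 probes, all measured in all 12 samples. On probe 22498 the lowest, median and highest log2 signals were 1.29, 2.12 and 2.72 in shear samples, against 1.71, 2.04 and 2.74 in control samples. Shear replicates 3 and 4 were the 2 lowest samples of the 12, and replicates 5 and 6 the 2 highest of their group.

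On Igfbp5 probe 8059 these signals were -1.67, -1.29 and -0.63 in shear samples, against -1.66, -1.28 and -1.07 in control samples. On probe 26982 they were -1.65, -0.87 and -0.24 in shear samples, against -2.20, -0.58 and 0.58 in control samples. The groups overlapped on all 3 probes.

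The changes of Igfbp5 were -0.10 ± 0.32 (SE) on probe 22498, 0.05 ± 0.31 on probe 8059 and -0.24 ± 0.70 on probe 26982. None passed, with adjusted p from 0.917 to 0.968 (limma, Benjamini-Hochberg), and each changed sign when 1 sample or array was left out. The widest interval, that of probe 26982, ran from -1.74 to 1.26. Of the 3 probes, 26982 was also the least even within arrays, where shear replicates 1 and 2 differed by -1.41 and control replicates 3 and 4 by 1.45. Unlike the Igf1 probes, the Igfbp5 probes did not vary together, with Pearson r of 0.07, 0.28 and -0.45 over the 12 samples for the 3 pairs.

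Igfbp7 (Entrez gene 29817) encodes a secreted relative of the binding proteins with low affinity for IGFs. Its probe 6606 was dim, at 57 to 296 units of net fluorescence in shear samples and 51 to 239 in control samples. The lowest, median and highest log2 signals were -2.13, -1.76 and -1.53 in shear samples, against -2.47, -2.28 and -1.39 in control samples. All 6 shear samples lay above the control median, but control replicates 1 and 2, at -1.39 and -1.49, were the highest of all 12 samples. The change was 0.26 ± 0.26 (SE), with adjusted p = 0.706 (limma, Benjamini-Hochberg). Without the array of control replicates 1 and 2 it was 0.57 and did not pass either.

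**Figure D4:**
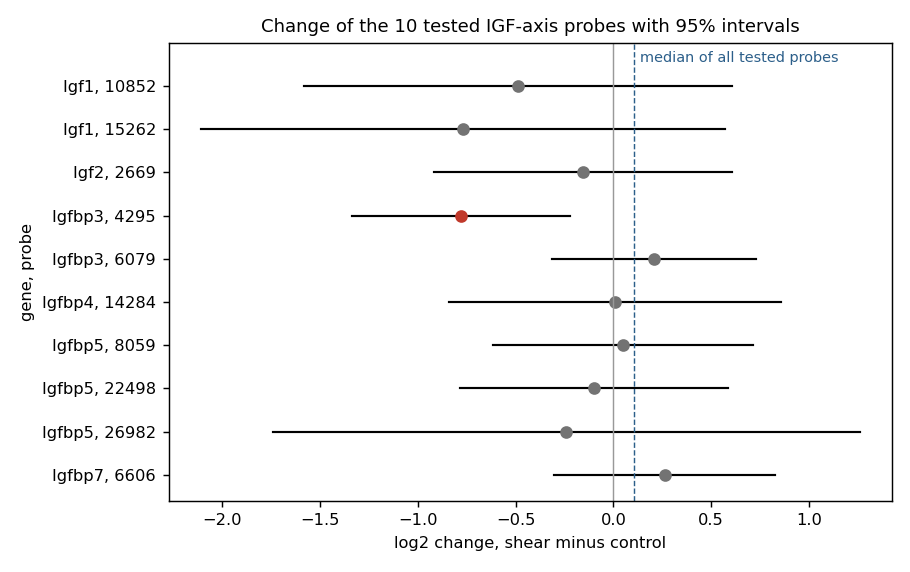
Log2 change, shear minus control (horizontal axis), of the 10 tested IGF-axis probes (rows), with points for estimates and bars for 95% intervals from the limma fit. Red marks Igfbp3 probe 4295, whose groups do not overlap and whose interval leaves out 0; the intervals of the other 9 probes include 0, and the dashed line is the median of all tested probes, 0.10.

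The wider IGF pathway was read from a list of 94 other genes, of which 45 were tested on 95 probes. Of these probes 2 passed (2.11%), both lower in shear samples, beside 1.62% of all probes in either direction. Over all probes 0.201% passed as lower and 1.42% as higher, so the share of lower calls was larger in the list and that of higher calls smaller, on a count of 2. The median change was 0.0028, beside 0.10 over all probes, with 48 probes above 0 and 47 below. The calls were 1 probe each of 2 genes, and nothing is read from them about the list. No probe of the list passed without shear replicate 1, shear replicate 6 or control replicate 3, and 6 passed without control replicate 4. At an unadjusted p under 0.05 there were 13 of the 95, close to the 14.6% of all probes.

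Of the signalling genes downstream of the receptor, Pik3r1 had a probe that passed. It encodes p85-alpha, the regulatory subunit of PI3-kinase that docks on insulin receptor substrates. On probe 19444 it was between -1.64 and -0.38 in shear samples and between -0.68 and 1.59 in control samples, with control replicate 4 the lowest control. The change was -1.77 ± 0.39 (SE, n = 6 per group), with adjusted p = 0.0370 (limma, Benjamini-Hochberg). The 2 other Pik3r1 probes gave -0.92 ± 0.24 and -0.86 ± 0.43 and did not pass, at adjusted p = 0.0780 and 0.380 (limma, Benjamini-Hochberg).

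On Pik3r1 probe 4953 the groups did not overlap, with -0.42 to 0.00 in shear samples and 0.17 to 0.95 in control samples. On probe 25597 the shear samples lay between -1.11 and -0.58 and the control samples between -1.30 and 0.64. There control replicate 4 lay below all shear samples, and the next control was at 0.20. The call of probe 19444 was lost in 16 of 29 alternatives, among them array means (adjusted p = 0.0854), no dye term (0.0550) and quantile normalization (0.0618; limma, Benjamini-Hochberg). It was also lost without shear replicate 1, 3, 4, 5 or 6, without control replicate 1, 2 or 3, and without each array except that of control replicates 3 and 4. Its change stayed between -2.13 and -1.53 in these 29 alternatives.

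The other 21 probes for PI3-kinase, AKT and mTOR genes did not pass. Next after Pik3r1 by p-value came the ribosomal protein Rps6, a target of S6 kinase, with a log2 change of 0.46, and the catalytic subunit Pik3ca with a log2 change of 0.43. A second Rps6 probe had a log2 change of -0.12. Of the 28 probes for receptor substrates and adaptors none passed, and 4 had an unadjusted p under 0.05, again close to the 14.6% of all probes. The phosphatase Ptpn1, which dephosphorylates the insulin receptor, had 1 probe at 0.79, where the groups did not overlap, and 1 at -0.64. The adaptor Shc1 had 1 probe at -1.58 and 3 between 0.10 and 0.75, and Crk was at 0.65.

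Among FOXO factors and genes they control, 1 of 12 probes passed, that of Sesn1, a sestrin induced by stress that restrains mTOR complex 1. On probe 12486 it was between -1.69 and -1.12 in shear samples and between -0.55 and 0.90 in control samples, without overlap. Its change was -1.54 ± 0.32 (SE), with adjusted p = 0.0277 (limma, Benjamini-Hochberg). A second Sesn1 probe gave -1.50 (adjusted p = 0.0822, limma). Probe 24205, with 4 shear and 5 control values, gave 1.93 (adjusted p = 0.253, limma), so the probes disagreed in sign. On probe 24205 control replicate 3 was at -3.23 and the next control at -1.13. Its change was 1.04 without that sample and at most 2.81 in the 22 alternatives that tested it. The call of probe 12486 was lost in 9 of 30 alternatives, among them those without shear replicate 1, shear replicate 6 or control replicate 3 (adjusted p = 0.0609, 0.0509 and 0.0569, limma) and those without any array except that of control replicates 3 and 4. Both Foxo3 probes, for a transcription factor that AKT holds out of the nucleus, lay below 0 at -0.83 and -0.56 and did not pass, nor did Sesn3 at -0.53. At an unadjusted p under 0.05 (limma) there were 5 of the 12, all of Sesn1 or Foxo3, beside 14.6% of all probes tested.

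Outside the cell, none of the 7 probes for proteases of the binding proteins and their inhibitors passed. The largest change was that of Adam12, a metalloprotease that cuts IGFBP-3 and IGFBP-5, at 1.01 (adjusted p = 0.257, limma). The tissue plasminogen activator Plat was at 0.77 and 0.45 on its 2 probes, and Stc1, a stanniocalcin, at 0.44. Pappa2, the protease of IGFBP-5 and IGFBP-3, was at 0.01. Igfals, the acid-labile subunit of the circulating complex, was at 0.27 on a dim probe. Of other receptors, Lrp1, an endocytic receptor that binds IGFBP-3, gave -0.93 and 0.10 on 2 probes, the integrin Itgb3 gave 0.32 and Igf2r gave 0.09, and none passed.

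No gene tied to Igf2 passed. All 5 probes of Igf2bp1, which binds Igf2 mRNA, lay above 0, from 0.05 to 0.51, and all 3 probes of H19, the imprinted non-coding RNA next to Igf2, lay below 0, from -0.29 to -0.20. In the growth hormone axis and among regulators of Igf1, none of 13 probes passed. First by p-value were Jak2, with a log2 change of 0.73, the oestrogen receptor Esr1, with -0.34, and the glucocorticoid receptor Nr3c1, with -0.32, and each of these 3 genes had at least 1 other probe of the opposite sign.

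**Figure D5:**
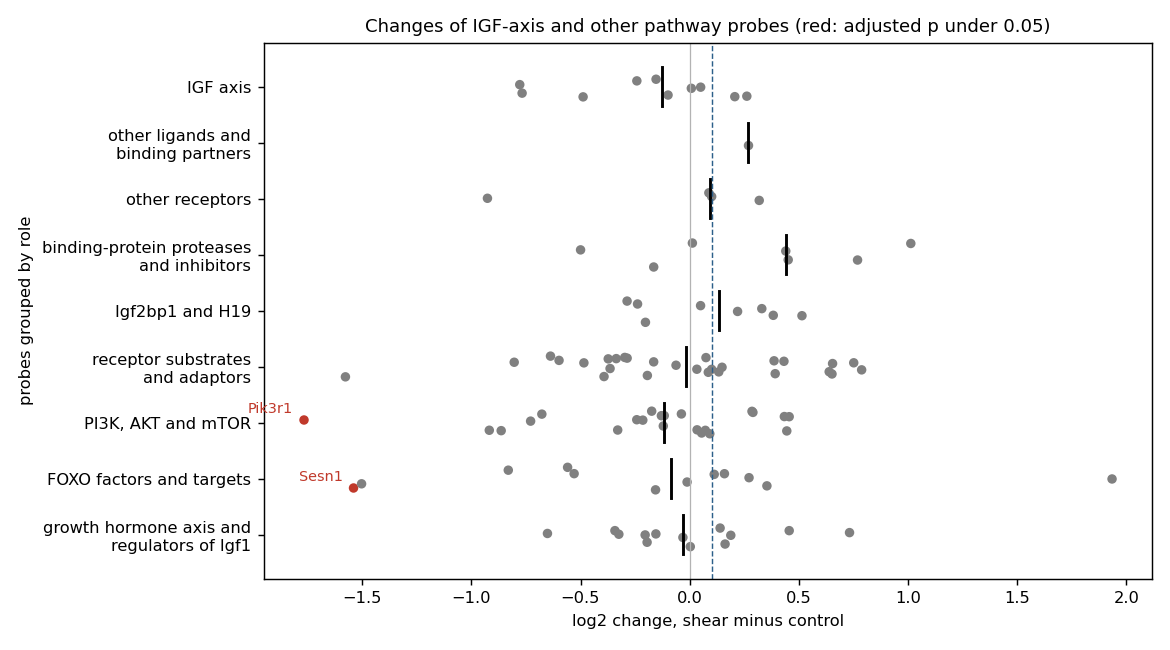
Log2 change, shear minus control (horizontal axis), of the 10 IGF-axis probes and the 95 probes of other pathway genes, grouped by role, with a black bar at each median and a dashed line at the median of all tested probes. The 2 red points, 1 probe of Pik3r1 at -1.77 and 1 of Sesn1 at -1.54, passed at an adjusted p of 0.05.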

How the data were processed

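Per the labels' protocols, 50 µg of total RNA per sample gave Cy5- or Cy3-labelled cDNA for spotted 2-colour arrays. The deposited values are log2 values made by the authors, 1 per probe and sample. In all 576 combinations of 48 blocks and 12 samples they were the log2 of a whole number divided by its block median, within 0.002, which settles the base and gave the net fluorescence. How the arrays were scanned, corrected for background and filtered for missing spots is not given in the sources used here. Symbols came from the platform annotation, updated through Entrez numbers.

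Each sample was centred on its median. Probes needed 4 or more of the 6 values per group (21883 did) and each was tested singly, so that probes of a gene stayed apart. limma 3.58.1 in R 4.3.3 modelled group and dye as fixed effects, with array as a random block (correlation 0.727), with Benjamini-Hochberg adjustment. Each group lay on 3 arrays while the degrees of freedom count 12 samples, so p-values can be too small. The fit was tested on simulated data. The number of arrays limits the precision.

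Members, pathway lists, markers and tests were chosen with earlier results of these data known. The text names every IGF-axis probe, pathway genes with a probe that passed, and up to 3 genes per pathway group by smallest p. Other genes named (Pappa2, Igf2r) were chosen for their role after their values were seen. Alternatives covered scaling, the array block and means, dye, filters, 1 probe per gene, shrinkage, the replicate number, and each sample and array left out. Tables were made with pandas 2.3.3 and numpy 2.4.6 under Python 3.11.15, and figures with matplotlib 3.10.9.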

Additional observations from a re-analysis of the deposited data

Results flagged for a closer look

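A sample far from the others of its group was looked for in 37 groups of values and found in 4. About 1 group in 20 would show one by chance if samples were independent, which those of 1 array are not. Igf2 probe 2669 was at -0.0780 in control replicate 3, above the next control at -0.64. Pik3r1 probe 25597 was at -1.30 in control replicate 4, below the next at 0.20, and Sesn1 probe 13654 at -1.40 in the same sample, below the next at -0.18. Shear replicate 2 had the fewest measured probes of its group, 21847 against 23039 in the next.

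Outside the comparison, Igf2 probe 27818 had a mean log2 signal of 0.309 over the 6 shear samples and no value in any control sample.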

How the results depend on the processing

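Of 30 alternatives, 29 left 0 IGF-axis probes past the threshold, and without the array block there was 1 (Igfbp3 probe 4295). With 1 sample left out the number of IGF-axis probes that passed was 0 in all 12 settings. The pathway list had 4 probes that passed with samples centred on probes measured in all and 4 with cyclic loess, 1 with quantile normalization, array means, 1 probe per gene or the replicate number as a block, and 14 without the array block, against 2. It had 0 to 6 with 1 sample left out (0 without shear replicate 1, shear replicate 6 or control replicate 3, 6 without control replicate 4), 4 without the array of control replicates 3 and 4, and 0 without any other array. Over all probes the count was 354, against 106 with array means, 235 with quantile normalization, 558 without dye, 2664 without the array block, 163 with the replicate block, 232 of 15603 features with 1 probe per gene, 180 to 368 with 1 sample left out and 75 to 234 with 1 array left out.

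Both Igf1 probes, both Igfbp3 probes and Igfbp7 kept their sign in every alternative that tested them. Igfbp3 probe 6079 came close to 0, at 0.014 with cyclic loess. Igfbp4 probe 14284 turned negative with samples centred on probes measured in all (-0.13), quantile normalization (-0.11), cyclic loess (-0.21), without shear replicates 1 and 2 (-0.13), control replicates 3 and 4 (-0.092) or control replicates 5 and 6 (-0.12), and ranged from -0.12 to 0.17 with 1 sample left out. Igfbp5 probe 8059 turned negative with that centring (-0.086), cyclic loess (-0.017), without shear replicates 3 and 4 (-0.0045), shear replicates 5 and 6 (-0.084) or control replicates 5 and 6 (-0.023), and ranged from -0.068 to 0.14 with 1 sample left out. Igfbp5 probe 22498 turned positive without shear replicates 3 and 4 (0.23) or control replicates 3 and 4 (0.092). Igfbp5 probe 26982 did so without control replicates 1 and 2 (0.070), with -0.58 to 0.025 when 1 sample was left out. Igf2 probe 2669 did so without shear replicates 1 and 2 (0.084) or control replicates 3 and 4 (0.028), with -0.33 to 0.028 when 1 sample was left out. The causes were not tested.

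No pairing by replicate number was seen: deviations of same-numbered samples correlated between -0.091 and 0.12, and 1 of 6 shear samples correlated best with its own number. Same-numbered samples were taken to lie on different arrays, so array differences could hide a pairing, and this check cannot exclude one. With the replicate block 0 IGF-axis probes passed. Dim spots (Igf2 probe 27825, Igfbp7) and the 2 probes without a value limit what can be seen.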

Other observations

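As a description of pattern alone, each IGF-axis gene with a probe measured in all 12 samples was set against up to 12629 other probes with 1 gene symbol. Igf1 probe 10852 was most like probes of Pccb, a subunit of propionyl-CoA carboxylase (Pearson r 0.95, Spearman rho 0.86), and Apeh, which releases acylated amino acids (0.94 and 0.92). Igfbp3 probe 6079 was most like Shroom2 (0.98 and 0.99) and Trmt61b (0.97 and 0.93), and Igfbp7 probe 6606 most like Dcakd (0.95 and 0.91) and the transcription factor Yy1 (0.95 and 0.98). Igfbp5 probe 22498 was most like Dnajb11, a chaperone of the endoplasmic reticulum (0.94 and 0.96), and St3gal2 (0.92 and 0.93). Igfbp4 probe 14284 was most like Ryk (0.89 and 0.74) and Arhgap31 (0.87 and 0.90). These are the highest of many correlations over 12 samples that share arrays and scaling.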
